A study of Homo sapiens with 18 samples.

Results

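The collagen genes were taken as every gene of the deposited table whose current symbol, looked up by its Entrez number, is COL, a number, A and a number. The rule found 43 genes among the 18475 listed, of which 18181 had a symbol. RNA-seq was carried out on 3 human lung lines that the labels give as wild type, with 3 control and 3 irradiated libraries each. BEAS-2B is an immortalised bronchial epithelial line, A549 a lung adenocarcinoma line of the non-small cell kind, and H446 a small cell lung cancer line. The irradiated cells of each line received 10 Gy of X-rays and were harvested 24 h later, and the controls received none. No transgene or deletion is named for any group. Each line stands for the cells of 1 donor, and the labels do not say whether the 3 libraries of a group came from separate cultures, so p-values measure the spread between these libraries, which may be technical. The question of the study was how the transcriptomes of bronchial epithelial cells and of cancer cells differ after the same dose.

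Collagens are secreted or membrane-bound proteins whose chains wind around each other in a triple helix of repeated glycine-containing triplets. Most chains assemble with set partners, which are often encoded by neighbouring or related genes. Fibrillar collagens give tissues tensile strength and are laid down mainly by fibroblasts, while type IV collagen builds the sheet-like network of the basement membrane beneath epithelia and around vessels. In the lung, excess fibrillar collagen is the hallmark of fibrosis, a late effect of chest irradiation. The 6 type IV genes lie as head-to-head neighbours that are read in opposite directions from a shared promoter region.

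Stretches upstream of 3 collagen genes are shown, since COL4A5 and its neighbour COL4A6 rose most among the collagen genes of A549 cells, COL4A3 and COL4A4 are another head-to-head type IV pair, and COL25A1 was abundant in H446 cells alone. The sequences are those of RefSeq on GRCh38.p14, each on the strand of its gene, and each is the longest run of the 250 bases before the start that no GENCODE 29 exon covers. Capitals mark 1 of 3 motifs, searched on both strands, which may share bases at their ends: the GC box, whose letters are GGGCGG, the box named CCAAT after its own letters, and the TATA box, for which the letters searched were TATAAA. The COL4A3 stretch (chr2:227164454-227164564, plus strand) lies between the starts of COL4A4 and COL4A3, which are 418 bases apart, and holds 1 GC box. The COL4A5 stretch (chrX:108439588-108439837, plus strand) lies between the starts of COL4A6 and COL4A5, 379 bases apart, and holds 2 CCAAT boxes in opposite directions. The COL25A1 stretch (chr4:109302753-109302908, minus strand) holds none of these motifs and has a GC content of 73.1%. The starts of COL4A1 and COL4A2 are 126 bases apart, and annotated exons cover nearly all of that interval, so it is not printed. These distances are between RefSeq starts, and the gene spans given further on are those of GENCODE 29, whose starts differ.
COL4A3: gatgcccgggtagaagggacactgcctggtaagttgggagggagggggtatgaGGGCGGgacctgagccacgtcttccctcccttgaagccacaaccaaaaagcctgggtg
COL4A5: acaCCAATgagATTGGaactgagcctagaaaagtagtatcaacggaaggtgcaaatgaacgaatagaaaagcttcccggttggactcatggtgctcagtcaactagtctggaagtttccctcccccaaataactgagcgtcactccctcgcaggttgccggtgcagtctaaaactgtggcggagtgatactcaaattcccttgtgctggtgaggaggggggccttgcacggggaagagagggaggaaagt
COL25A1: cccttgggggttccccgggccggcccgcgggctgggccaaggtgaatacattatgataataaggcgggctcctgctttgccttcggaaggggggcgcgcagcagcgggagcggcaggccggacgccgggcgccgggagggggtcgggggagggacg

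RefSeq promoter windows of 300 bases (250 before and 50 after the start) were matched for 32 of the 43 collagen genes, as 44 windows. A GC box was present in 24 of these 44 windows (54.5%) and in 45% of all 35116 windows. A CCAAT box was in 14 (31.8%, against 34.6% of all windows) and a TATA box in 8 (18.2%, against 11.5%). The median number of CG dinucleotides was 29 in the 22 windows of collagen genes that were tested in at least 1 line, 10 in the 22 windows of the other collagen genes and 14 over all windows. These matches describe letters and not binding.

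The values are treated as FPKM (fragments per kilobase of transcript, scaled to the size of the library), a scale per transcript length on which levels of different genes can be compared. Totals per library were between 461255 and 529936 FPKM, and the steps between low values put the depth at a level where 1 FPKM on a transcript of 1 kb stands for 13.2 to 15.3 reads. Keratins KRT8 and KRT18, markers of simple epithelium, were at 342 FPKM or more in every library of all lines, but the epithelial cadherin CDH1 reached at most 0.54 FPKM in BEAS-2B and 0.74 in H446 cells, against 6.74 to 11.3 FPKM in A549 cells, and EPCAM reached at most 3.06 FPKM in any line. KRT5, which defines basal bronchial cells, reached at most 0.03 FPKM in BEAS-2B cells, and the neuroendocrine markers CHGA and SYP reached at most 0.29 FPKM in H446 cells. YAP1, which marks small cell cancers without neuroendocrine features, was at 45.2 to 51.7 FPKM in H446 cells and at 39.5 FPKM or more in the other lines. The mesenchymal markers VIM and FN1 were at 806 and 73.8 FPKM or more in every library of all lines. Fibroblast markers were uneven. BEAS-2B cells held THY1 at 109 to 134 FPKM and PDGFRB at 9.78 to 14.4 FPKM. H446 cells held FAP at 9.84 to 12.8 FPKM and LUM at 15.2 to 20.4 FPKM. A549 cells held ACTA2 at 13.9 to 47.3 FPKM, with THY1 and FAP listed at 0. POSTN was at 0.23 FPKM or less and TCF21 at 0.91 FPKM or less in every library. The damage response genes CDKN1A and MDM2 served as a check of the treatment. CDKN1A stood at 79.9, 86.4 and 86.1 FPKM in the BEAS-2B controls and at 310, 102 and 488 FPKM in irradiated replicates 1, 2 and 3, and MDM2 at 18.9, 17.5 and 18.2 against 47.5, 16.2 and 87.8 FPKM. The irradiated BEAS-2B library of replicate 2 was thus at the level of the controls for MDM2 and near it for CDKN1A, and BEAS-2B results whose call changes without it are given both ways. In A549 cells CDKN1A went from between 101 and 106 FPKM to between 294 and 318 FPKM, and MDM2 from between 25.6 and 28.4 to between 87.0 and 102 FPKM. In H446 cells neither rose, with CDKN1A at 71.7 to 75.7 FPKM in the controls and 63.6 to 72.4 FPKM after irradiation.

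A collagen gene was tested in a line where 3 or more of the 6 libraries held 1 FPKM or more of it. The number tested was 20 for BEAS-2B, 19 for A549 and 18 for H446 cells, and the filter was passed by 25 genes in at least 1 line and by 13 in all 3 lines. No gene passed with all libraries of 1 treatment below 1 FPKM. The 13 were COL1A1, COL5A1, COL27A1, COL4A1, COL4A2, COL4A4, COL4A5, COL4A6, COL6A1, COL6A2, COL7A1, COL8A1 and COL12A1. The 18 genes tested in no line were below 1 FPKM in all 18 libraries, and 11 of them never exceeded 0.2 FPKM. They were COL1A2, COL2A1, COL5A3, COL6A3, COL6A6, COL9A1, COL10A1, COL11A2, COL14A1, COL17A1, COL19A1, COL20A1, COL21A1, COL22A1, COL23A1, COL24A1, COL26A1 and COL28A1. Among these are COL2A1, the main collagen of cartilage, and COL17A1, a hemidesmosome collagen of basal epithelial cells, which reached 0.83 FPKM in H446 cells at most.

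**Figure D1:**
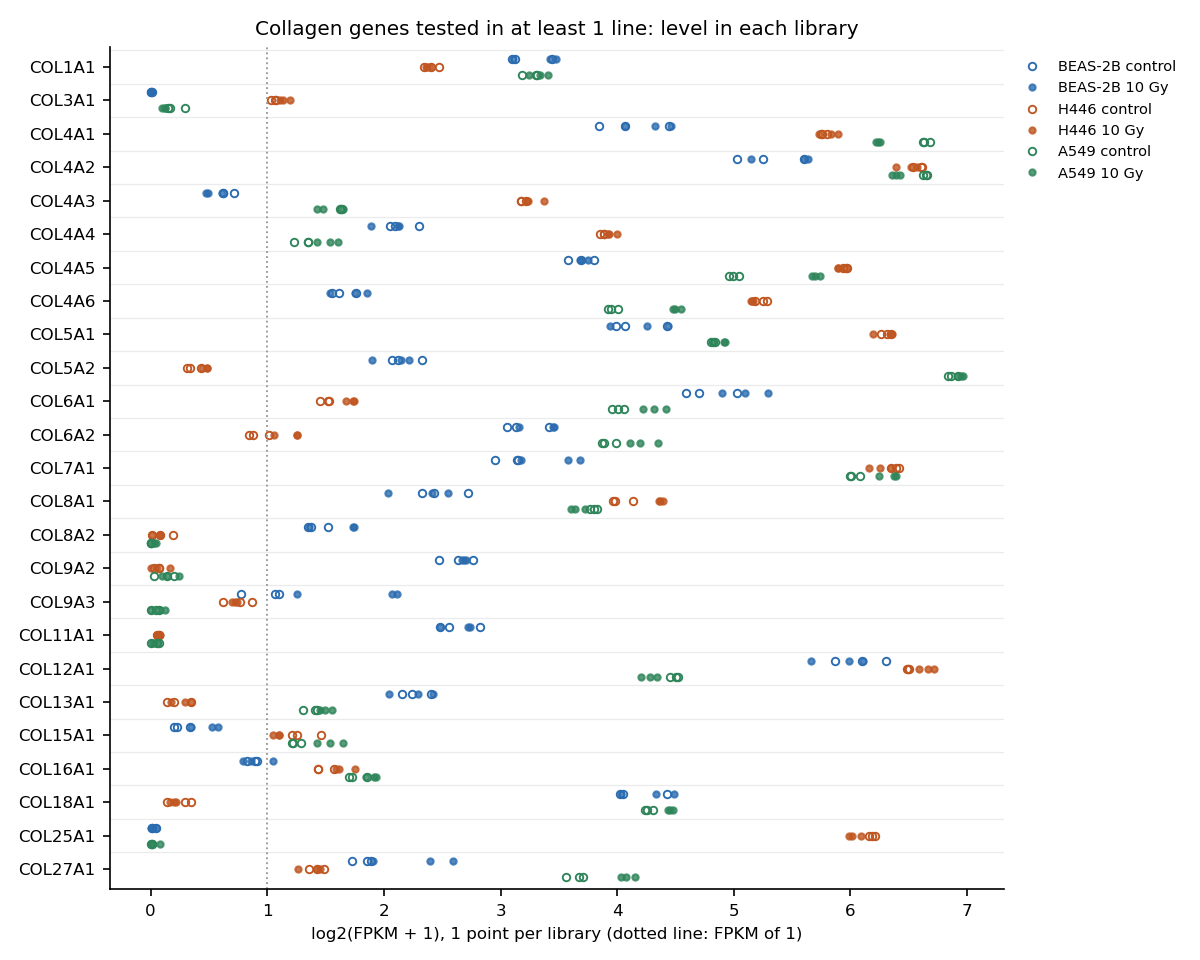
Level of the 25 tested collagen genes in each of the 18 libraries, as log2(FPKM + 1) on the x axis, with open points for controls, filled points for 10 Gy, and a colour per line. COL25A1 is near 6 on this axis in the H446 libraries and near 0 in the others, COL5A2 near 7 in the A549 libraries, and the distance between lines exceeds that between treatments for most genes.

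The lines differed in how much collagen mRNA they held and of which class. Summed over the 43 genes, the controls held 223 to 299 FPKM in BEAS-2B, 609 to 630 FPKM in H446 and 563.5 to 566.9 FPKM in A549 cells. Basement membrane chains made up 28.6% of the collagen FPKM in BEAS-2B controls, 43.2% in H446 controls and 43.8% in A549 controls on average. Fibrillar chains amounted to a mean of 165 ± 4.03 FPKM (SD, n = 3) in A549 controls, against 86.1 ± 2.54 in H446 and 37.7 ± 5.43 in BEAS-2B controls. Beaded filament (type VI) chains were at 2.74 ± 0.04 FPKM in H446 controls and above 29 FPKM in every control of the other lines. Transmembrane collagens reached 72.5 ± 1.22 FPKM in H446 controls, nearly all of it COL25A1, and at most 4.29 FPKM in any control of the other lines. After irradiation the sums were 235 to 292 FPKM in BEAS-2B, 593.5 to 630.3 FPKM in H446 and 573 to 598 FPKM in A549 cells, so the A549 sums lay above those of their controls and the others overlapped with theirs. In bulk RNA, fewer cells that express a gene and less of its RNA per cell cannot be told apart.

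Unirradiated levels were compared in 1 fit of all 18 libraries on log2(FPKM + 1), over the 25 genes. Between A549 and BEAS-2B controls, 14 collagen genes were higher in A549 and 8 lower (background: 38.3% of all tested genes higher and 45.4% lower). H446 controls had 14 higher and 10 lower than BEAS-2B (background 35.2% and 45.9%). Against A549, H446 controls had 10 higher and 9 lower (background 40.5% and 42.7%). With such backgrounds, a difference between lines was common to most genes of the table. Only 13 of the 25 passed the filter in all 3 lines, and a gene that passed through the line where it is high had to differ, so these counts describe the lines and support nothing further. Among the genes at the extremes was COL25A1, a transmembrane collagen known from amyloid plaques and from motor nerve to muscle contacts, at 71.6, 72.9 and 70.5 FPKM in H446 controls. It did not exceed 0.06 FPKM in any BEAS-2B or A549 library, so that it passed the filter through H446 cells alone.

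Responses to 10 Gy were tested within each line. In A549 cells 13 of the 19 tested collagen genes changed (background 51.7% of all tested genes), 9 upward (background 25.3%) and 4 downward (background 26.4%), with a median log2 fold change of 0.14 against 0.00 over all genes. In H446 cells 6 of 18 changed (background 38.4%), 4 upward (background 14.8%) and 2 downward (background 23.6%), with a median of 0.02 against -0.03 over all genes. In BEAS-2B cells limma called 0 of 20 collagen genes and 0% of all 11734 tested genes, and 4 collagen genes and 1446 genes in all had an unadjusted p under 0.05. The median was 0.09 against 0.00 over all genes. Over these few genes, the share that rose in A549 cells lay above the background share, and the share that fell was near it.

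**Figure D2:**
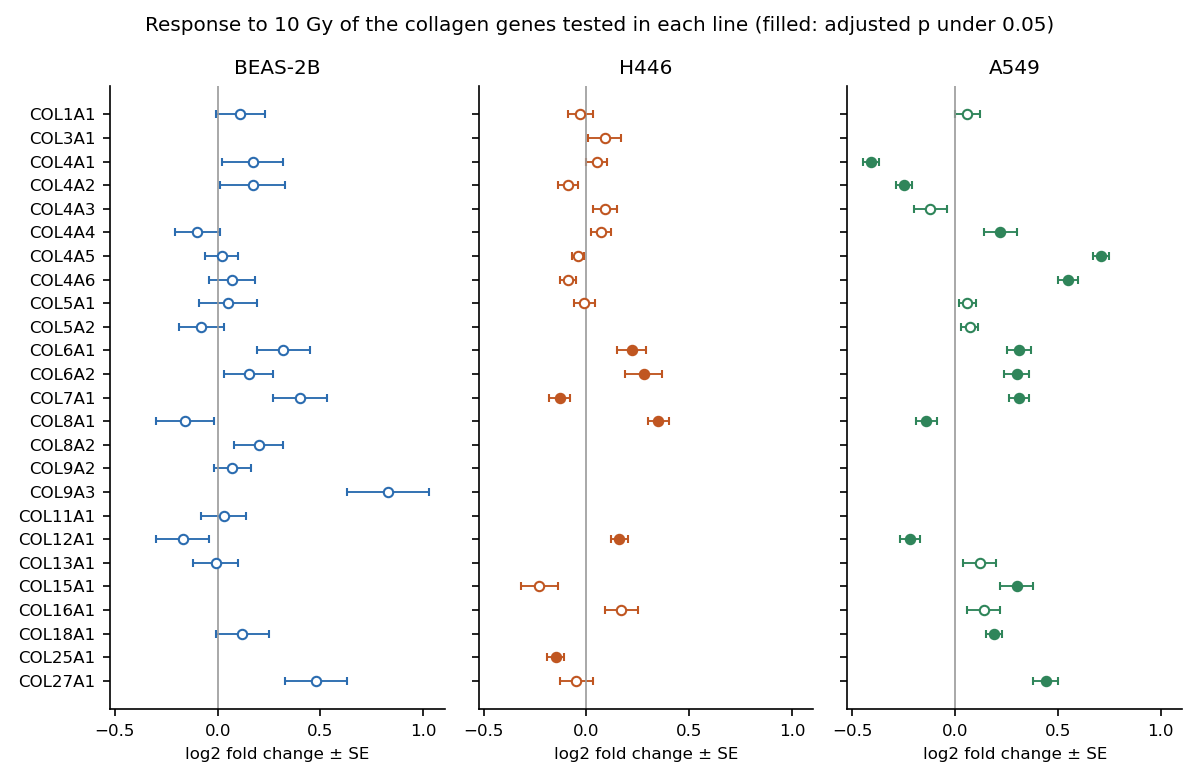
Log2 fold change of each tested collagen gene after 10 Gy in the 3 lines, on log2(FPKM + 1), with bars for the standard error from limma and filled points where the adjusted p was under 0.05. COL4A5 and COL4A6 are farthest to the right and COL4A1 farthest to the left in A549 cells, H446 changes stay within 0.35 of 0, and the BEAS-2B points are all open with wider bars.

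The H446 libraries carried a trend on GC content that separated their groups. Across all genes, the Spearman correlation of a library's deviation with transcript GC content was 0.35 to 0.46 in the H446 controls and -0.50 to -0.11 in the irradiated libraries. Collagen transcripts had a median GC content of 55.4%, against 49.0% for all genes, and 29 of the 43 lay above the latter. With the trend removed, 7 collagen genes were higher and 1 lower in H446 cells, in place of 4 and 2 (background with the trend removed 16.0% and 15.0%), and in A549 cells the counts stayed at 9 and 4 (background 26.5% and 27.1%). Changes of collagen genes in H446 cells are therefore given with both values where the call differs, and changes that were not called and turned sign are listed in the closing section.

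Type IV collagen held the largest rises and the largest fall among the collagen genes that passed the test, all in A549 cells. COL4A1 and COL4A2 (chr13:110148963-110307233 and chr13:110305812-110513209), which form the network of nearly all basement membranes, fell. COL4A1 was at 97.8, 98.1 and 102 FPKM in the A549 controls and at 73.5, 75.1 and 74.6 FPKM after irradiation. Its log2 fold change was -0.41 ± 0.04 (SE, adjusted p = 1.87e-06), with no overlap between the groups. COL4A2 went from 97.8, 99.0 and 99.8 FPKM to 85.0, 81.1 and 82.8 FPKM, a change of -0.25 ± 0.04 (adjusted p = 0.000101). The fit of all 18 libraries did not call it. Both annotated genes overlap at their starts on opposite strands, and the library protocol names no strand, so reads there cannot be assigned to 1 of them.

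The X-linked chains COL4A5 and COL4A6 (chrX:108439844-108697545 and chrX:108155607-108439497), which are found in the basement membranes of kidney, skin and smooth muscle, rose in A549 cells. COL4A5 was at 31.9, 30.1 and 30.9 FPKM in the controls and at 50.9, 49.9 and 52.6 FPKM after irradiation, the largest collagen change of that line at 0.71 ± 0.04 on the log2 scale (adjusted p = 6.99e-08). COL4A6 rose from 15.1, 14.4 and 14.2 FPKM to 21.3, 21.6 and 22.3 FPKM, by 0.55 ± 0.05 (adjusted p = 1.67e-06). All irradiated libraries lay above all controls for both genes. The ratio of COL4A5 to COL4A1 was 0.303 to 0.326 in the controls and 0.664 to 0.704 after irradiation, and the ratio of COL4A5 to COL4A6 moved less, from between 2.08 and 2.18 to between 2.31 and 2.39, again without overlap.

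COL4A3 and COL4A4 (chr2:227164565-227314792 and chr2:227002711-227164453), partners of COL4A5 in the filtration barrier of the kidney, were low in A549 cells. COL4A4 went from 1.34, 1.55 and 1.54 FPKM to 1.91, 1.68 and 2.04 FPKM (0.22 ± 0.08, adjusted p = 0.048), a call that was lost when any of 5 of the 6 libraries was left out. Its BEAS-2B response was lower than that of A549 cells (difference -0.32 ± 0.11, adjusted p = 0.0369), which missed the threshold after quantile normalization (-0.25, adjusted p = 0.0931) or rescaling to equal totals (-0.30, adjusted p = 0.0817). COL4A3 was between 1.68 and 2.13 FPKM in all 6 libraries, with overlapping groups and a change of -0.12 ± 0.08 (adjusted p = 0.249). The ratio of COL4A3 to COL4A4 was 1.35 to 1.56 in the controls and 0.88 to 1.07 after irradiation.

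In H446 cells none of the 6 type IV genes passed the test. COL4A1 was at 54.7, 52.7 and 53.2 FPKM in controls and 55.9, 51.9 and 58.6 FPKM after irradiation (0.05 ± 0.05, adjusted p = 0.418), and with the GC trend removed it rose by 0.15 (adjusted p = 0.0256). COL4A2 was at 96.1, 96.7 and 91.7 against 94.1, 83.1 and 90.8 FPKM (-0.09 ± 0.05, adjusted p = 0.171). COL4A5 stood at 61.7, 60.2 and 61.3 against 60.8, 58.6 and 58.5 FPKM. These 3 chains differed by less than 0.1 on the log2 scale between treatments. COL4A6 stood at 38.0, 37.1 and 35.4 against 34.6, 34.3 and 34.8 FPKM (-0.09 ± 0.04, adjusted p = 0.0967), with no overlap, and COL4A4 at 13.8, 13.8 and 13.5 against 14.2, 14.3 and 15.0 FPKM. Removing the GC trend put COL4A2, COL4A5 and COL4A6 at 0.09, 0.01 and 0.00, none of them called. COL4A3, at 8.01 to 9.38 FPKM, was far above its level in the other lines, and H446 controls exceeded A549 controls by 1.55 ± 0.07 on the log2 scale for COL4A3 and by 2.57 ± 0.08 for COL4A4.

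BEAS-2B controls held less of every type IV chain than H446 controls, and all 6 differences passed the test, with COL4A3 under the filter in BEAS-2B cells. COL4A1 was at 15.7, 20.8 and 13.4 FPKM in controls and at 21.0, 19.1 and 15.7 FPKM after irradiation, and COL4A2 at 37.1, 47.5 and 31.6 against 47.7, 48.7 and 34.5 FPKM. Both groups overlapped, and both changes were 0.17 on the log2 scale (adjusted p = 0.644 and 0.654). COL4A5 was at 11.9, 12.9 and 11.0 against 11.8, 11.9 and 12.4 FPKM (0.02 ± 0.08). COL4A6 (1.90 to 2.62 FPKM) and COL4A4 (2.70 to 3.93 FPKM) did not pass the test either, and COL4A3 stayed below 0.7 FPKM. The ratio of COL4A1 to COL4A2 was 0.423 to 0.438 in BEAS-2B controls and 0.391 to 0.456 after irradiation. It was 0.545 to 0.58 in H446 controls and 0.594 to 0.645 after irradiation, and 0.991 to 1.02 in A549 controls and 0.865 to 0.926 after irradiation, so the groups separated in both cancer lines, upward in H446 and downward in A549 cells. These ratios are not corrected for GC content. In H446 cells COL4A1 and COL4A2 changed by 0.05 and -0.09 as measured, and by 0.15 and 0.09 with the GC trend removed.

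**Figure D3:**
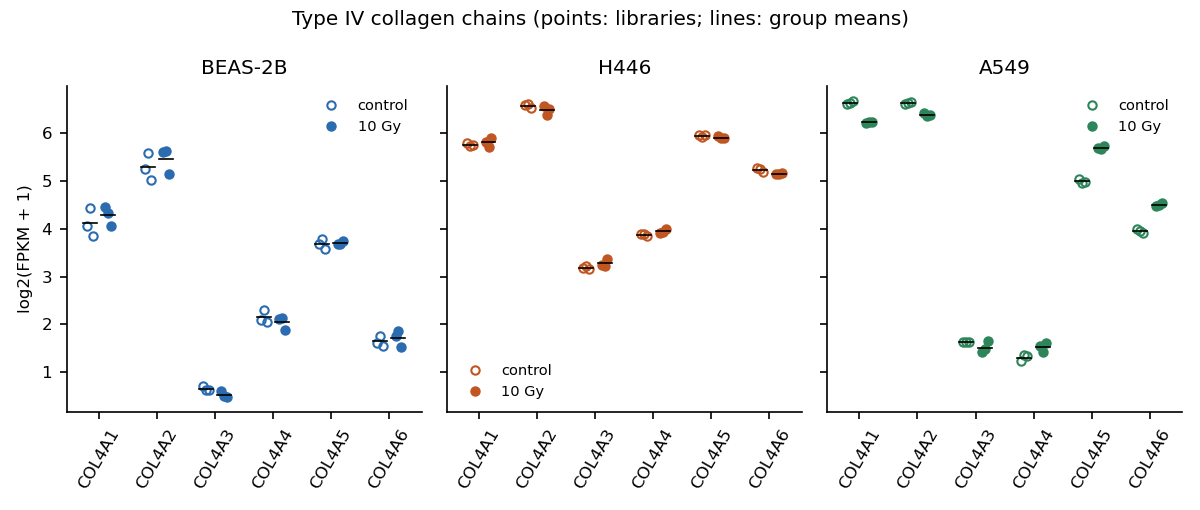
The 6 type IV collagen chains in each line as log2(FPKM + 1), with 1 point per library (open for control, filled for 10 Gy) and a line for each group mean. In A549 cells the filled points lie below the open ones for COL4A1 and COL4A2 and above them for COL4A5 and COL4A6, and in BEAS-2B cells the groups overlap for the chains that were tested.

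The responses of COL4A1, COL4A5 and COL4A6 differed between A549 cells and both other lines by a test of the difference itself, in the fit of all 18 libraries. COL4A2 and COL4A3 passed it against neither line, and COL4A4 against BEAS-2B alone. For COL4A5, the response in A549 exceeded that in H446 by 0.75 ± 0.07 on the log2 scale (adjusted p = 5e-07), and the BEAS-2B response was lower than the A549 response by a difference of -0.69 ± 0.07 (adjusted p = 1.47e-06). COL4A6 gave 0.63 ± 0.10 for A549 minus H446 (adjusted p = 0.000104) and -0.48 ± 0.10 for BEAS-2B minus A549 (adjusted p = 0.00163). COL4A1 differed the other way, with -0.46 ± 0.15 for A549 minus H446 (adjusted p = 0.0269) and 0.58 ± 0.15 for BEAS-2B minus A549 (adjusted p = 0.00868). With the GC trend removed, these 6 differences kept their sign and stayed past the threshold.

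Fibrillar collagens, the rods of tendon, skin and scar, showed large differences between lines and few responses. COL5A2, whose chain joins COL5A1 in type V collagen that sets fibril diameter, was at 120.3, 113 and 115 FPKM in A549 controls and 119, 122 and 124 FPKM after irradiation (0.07 ± 0.04, adjusted p = 0.137). It was at 2.73 to 4.01 FPKM in BEAS-2B and at 0.24 to 0.40 FPKM in H446 cells. Its partner COL5A1 had another order, with 78.6, 80.4 and 75.9 FPKM in H446 controls, 27.2, 27.0 and 27.6 FPKM in A549 controls and 15.8, 20.5 and 14.9 FPKM in BEAS-2B controls. The ratio of COL5A1 to COL5A2 was 0.223 to 0.244 in A549, 4.68 to 5.69 in BEAS-2B and 180 or more in H446 cells. COL5A1 did not pass the test after irradiation in any line, with 80.9, 72.1 and 79.9 FPKM in H446, 29.1, 27.2 and 29.3 FPKM in A549 and 18.1, 20.7 and 14.3 FPKM in BEAS-2B cells. With the GC trend removed, it was called higher in H446 cells at 0.15 ± 0.04 (adjusted p = 0.025).

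Type I collagen, the main protein of scar, is built from COL1A1 and COL1A2 chains. COL1A1 was at 7.58 to 10.1 FPKM in BEAS-2B, 4.08 to 4.54 FPKM in H446 and 8.10 to 9.60 FPKM in A549 cells. It did not pass the test in any line, and the groups overlapped in each. COL1A2 was at 0.26 to 0.66 FPKM in BEAS-2B cells, reached 0.01 FPKM in 1 H446 library and was otherwise listed at 0 in H446 and A549 cells. COL3A1, the fibrillar collagen of vessels and early scar, was at 1.05 to 1.29 FPKM in H446 cells, 0.07 to 0.23 FPKM in A549 and at most 0.01 FPKM in BEAS-2B cells. COL11A1, which nucleates fibrils in cartilage, was at 4.58 to 6.07 FPKM in BEAS-2B and at most 0.06 FPKM in the other lines, without a response (0.03 ± 0.11, adjusted p = 0.935).

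COL27A1 (chr9:114155560-114312511), a fibrillar collagen of the cartilage growth zone, was the fibrillar gene that responded. In A549 cells it rose from 12.1, 11.7 and 10.8 FPKM to 15.9, 15.4 and 16.8 FPKM, by 0.44 ± 0.06 on the log2 scale (adjusted p = 4.73e-05). In BEAS-2B cells it was at 2.61, 2.31 and 2.70 FPKM in controls and at 4.27, 2.74 and 5.03 FPKM in irradiated replicates 1 to 3. All 3 irradiated libraries lay above the controls, replicate 2 by 0.04 FPKM, and the change of 0.48 ± 0.15 missed the threshold (adjusted p = 0.28). In H446 cells it was at 1.40 to 1.80 FPKM, with overlapping groups. The response exceeded that of H446 cells in A549 (by 0.49 ± 0.17, adjusted p = 0.0302) and in BEAS-2B cells (by 0.52 ± 0.17, adjusted p = 0.0327, and 0.0501 after quantile normalization). These differences were 0.34 ± 0.19 and 0.26 ± 0.19 (adjusted p = 0.171 and 0.422) once the GC trend was removed.

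Type VI collagen forms beaded filaments around cells from COL6A1, COL6A2 and a COL6A3 or related chain. COL6A1 and COL6A2, neighbours on chromosome 21 (chr21:45981737-46005050 and chr21:46098097-46132849), rose in both cancer lines. In A549 cells COL6A1 went from 15.1, 15.6 and 14.5 FPKM to 18.9, 17.6 and 20.4 FPKM (0.31 ± 0.06, adjusted p = 0.000686). COL6A2 went from 13.6, 14.9 and 13.8 FPKM to 19.4, 16.3 and 17.4 FPKM (0.30 ± 0.06, adjusted p = 0.00186). The groups did not overlap for either gene. In H446 cells COL6A1 was far lower, at 1.88, 1.74 and 1.87 FPKM in controls and 2.19, 2.33 and 2.34 FPKM after irradiation (0.22 ± 0.07, adjusted p = 0.0353). COL6A2 there went from 0.79, 1.02 and 0.84 FPKM to 1.38, 1.08 and 1.39 FPKM (0.28 ± 0.09, adjusted p = 0.0374). With the GC trend removed, the H446 changes were 0.42 and 0.52 (adjusted p = 0.00275 and 0.00283). Without that correction, 5 and 4 of the 6 single-library omissions took the calls of COL6A1 and COL6A2 away.

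In BEAS-2B cells COL6A1 was the main type VI chain, at 25.1, 31.6 and 23.0 FPKM in controls and 38.2, 33.2 and 28.8 FPKM after irradiation (0.32 ± 0.13, adjusted p = 0.353). Irradiated replicate 3 lay below the highest control. With the replicate number as a block in the fit, COL6A1 was called higher (limma adjusted p = 0.0376), though the numbers were not taken as pairs. COL6A2 was at 7.31 to 10.0 FPKM in the same libraries, and the ratio of COL6A1 to COL6A2 was 3.15 to 3.82, against 0.974 to 1.18 in A549 cells. COL6A3, the long chain of the trimer, stayed at 0.02 FPKM or less in BEAS-2B, at 0.04 FPKM or less in H446 and at 0.62 to 0.78 FPKM in A549 cells. The other measured chain that can take its place, COL6A6, did not exceed 0.02 FPKM. None of the response differences between lines passed the threshold for COL6A1 or COL6A2, but once the GC trend was removed the BEAS-2B response of COL6A2 was lower than that of H446 cells (-0.47 ± 0.11, adjusted p = 0.0138).

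COL7A1 (chr3:48564073-48595267), the anchoring fibril collagen that ties the basement membrane to the tissue below and is defective in dystrophic epidermolysis bullosa, rose in A549 cells and was called lower in H446 cells, where its sign turned once the GC trend was removed. In A549 cells it rose from 63.4, 66.7 and 62.7 FPKM to 81.9, 75.0 and 82.8 FPKM (0.31 ± 0.05, adjusted p = 0.000134). In H446 cells it went from 84.7, 82.9 and 80.5 FPKM to 80.4, 70.4 and 75.2 FPKM (-0.13 ± 0.05, adjusted p = 0.0466). The H446 groups were 0.08 FPKM apart at their nearest, the call was lost when any of 5 of the 6 libraries was left out, and with the GC trend removed the change was 0.08 (adjusted p = 0.111). BEAS-2B cells held 6.73, 7.86 and 7.82 FPKM in controls and 11.0, 8.05 and 11.8 FPKM after irradiation (0.40 ± 0.13, adjusted p = 0.277), again without overlap and with replicate 2 nearest the controls. The response was higher than that of H446 cells by 0.44 ± 0.13 in A549 (adjusted p = 0.0145) and by 0.53 ± 0.13 in BEAS-2B cells (adjusted p = 0.00889). These differences were 0.26 ± 0.15 and 0.21 ± 0.15 (adjusted p = 0.177 and 0.387) once the GC trend was removed.

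The short chain collagen COL8A1 (chr3:99638475-99799226), which forms hexagonal lattices under endothelium and in injured vessel walls, also differed between the cancer lines. It rose in H446 cells from 16.6, 14.8 and 14.6 FPKM to 19.7, 20.0 and 19.6 FPKM, the largest collagen rise of that line as measured (0.35 ± 0.05, adjusted p = 0.000697). Removal of the GC trend left it at 0.36, below COL6A1 and COL6A2. It fell in A549 cells from 13.2, 12.6 and 12.9 FPKM to 12.2, 11.2 and 11.5 FPKM (-0.14 ± 0.05, adjusted p = 0.0387), a call lost when any of 4 of the 6 libraries was left out. The fit of all 18 libraries did not call it either. BEAS-2B cells held 3.10 to 5.60 FPKM with overlapping groups (-0.16 ± 0.14). The response was lower than that of H446 cells in A549 (difference -0.49 ± 0.15, adjusted p = 0.0168) and in BEAS-2B cells (-0.51 ± 0.15, adjusted p = 0.0216), with the GC trend removed as well. COL8A2, its partner in the cornea, was at 1.55 to 2.35 FPKM in BEAS-2B cells and at 0.14 FPKM or less in the others.

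FACIT collagens sit on the surface of fibrils and link them to other matrix. COL12A1 (chr6:75084326-75206051), the FACIT of load-bearing tissue, was among the most abundant collagens. It rose in H446 cells from 89.8, 88.5 and 89.3 FPKM to 95.1, 101 and 104 FPKM (0.16 ± 0.04, adjusted p = 0.00879). It fell in A549 cells from 21.6, 21.0 and 22.0 FPKM to 17.5, 18.5 and 19.3 FPKM (-0.22 ± 0.05, adjusted p = 0.00284). Both calls were lost in the fit of all 18 libraries. Neither pair of groups overlapped, and A549 minus H446 gave a difference in response of -0.38 ± 0.14 (adjusted p = 0.0414), which missed the threshold after quantile normalization (-0.34, adjusted p = 0.067) or rescaling to equal totals (-0.41, adjusted p = 0.0548). In BEAS-2B cells it was at 67.4, 77.9 and 57.5 against 62.6, 68.2 and 49.5 FPKM, with overlap (-0.17 ± 0.13, adjusted p = 0.597). Without irradiated replicate 2 of that line, the BEAS-2B response was lower than that of H446 cells (difference -0.43 ± 0.13, adjusted p = 0.0308), which it was not with all libraries. COL16A1 was at 1.71 to 2.36 FPKM in H446 and 2.25 to 2.81 FPKM in A549 cells and passed the test in neither, but in H446 cells with the GC trend removed it was called higher at 0.36 ± 0.09 (adjusted p = 0.0125).

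The type IX chains COL9A2 and COL9A3, partners on cartilage fibrils, were tested in BEAS-2B cells alone. COL9A2 was at 4.55 to 5.78 FPKM in that line with overlapping groups (0.07 ± 0.09). COL9A3 (chr20:62816244-62841159) was at 1.09, 1.14 and 0.71 FPKM in the controls and at 3.33, 1.39 and 3.19 FPKM in irradiated replicates 1 to 3. The irradiated libraries were all above the controls, and the change was the largest of any collagen gene in any line as measured, 0.83 ± 0.20 on the log2 scale, but missed the threshold (adjusted p = 0.241). With the GC trend removed it was 0.68 ± 0.24, below COL4A5 in A549 cells at 0.71 ± 0.04. In H446 cells COL9A3 was at 0.54 to 0.83 FPKM and in A549 cells at 0.09 FPKM or less, under the filter in both. At those levels a response could hardly register on log2(FPKM + 1) in A549 cells, and the gene passed the filter through BEAS-2B cells alone, so its difference in response between lines is not read as a result. COL9A3 overlaps TCFL5 on the opposite strand in the annotation, so reads of that overlap cannot be told apart here.

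Transmembrane collagens span the cell surface and can be shed. COL25A1 (chr4:108808725-109302752) fell in H446 cells from 71.6, 72.9 and 70.5 FPKM to 62.6, 63.6 and 67.2 FPKM (-0.15 ± 0.04, adjusted p = 0.00994). The groups did not overlap, and the change was -0.20 with the GC trend removed (adjusted p = 0.0016). COL13A1, a collagen of the neuromuscular junction, was at 3.13 to 4.37 FPKM in BEAS-2B and 1.48 to 1.94 FPKM in A549 cells and passed the test in neither.

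Multiplexins are basement membrane zone collagens, and the end fragment of COL18A1 is endostatin, an inhibitor of vessel growth. COL18A1 (chr21:45405137-45513720) rose in A549 cells from 17.9, 18.8 and 18.1 FPKM to 21.3, 20.7 and 20.9 FPKM (0.19 ± 0.04, adjusted p = 0.00326). The fit of all 18 libraries did not call it. In BEAS-2B cells it was at 15.5, 20.5 and 15.3 against 19.2, 21.4 and 15.3 FPKM, with overlap (0.12 ± 0.13), and in H446 cells at 0.27 FPKM or less. COL15A1 (chr9:98943179-99070792) rose in A549 cells from 1.45, 1.31 and 1.33 FPKM to 1.69, 1.91 and 2.13 FPKM (0.30 ± 0.08, adjusted p = 0.0108). After quantile normalization it was not called there. It was at 1.31, 1.76 and 1.39 FPKM in H446 controls and 1.07, 1.14 and 1.14 FPKM after irradiation (-0.23 ± 0.09, adjusted p = 0.0675). The A549 response exceeded that of H446 by 0.53 ± 0.11 (adjusted p = 0.00131), and BEAS-2B exceeded H446 by 0.46 ± 0.11 (adjusted p = 0.00781), where BEAS-2B levels of 0.15 to 0.49 FPKM were under the filter. With the GC trend removed, the former stayed past the threshold and the latter did not.

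Over the 25 collagen genes, 5 responses differed between A549 and BEAS-2B cells. For BEAS-2B minus A549, 2 were higher and 3 lower (background 16.0% and 14.6% of all tested genes). The higher include COL9A3, which passed the filter through BEAS-2B cells alone and is not read as a difference between lines. For BEAS-2B minus H446, 4 were higher and 1 lower (background 13.7% and 8.99%). The 4 include COL9A3, under the filter in H446 cells, and COL15A1, under the filter in BEAS-2B cells, so this split is not read against its background. With the GC trend removed, that split became 1 higher (COL25A1) and 3 lower (COL8A1, COL6A2 and COL16A1), against a background of 4.87% and 5.76%. COL25A1 and COL16A1 were under the filter in BEAS-2B cells, so that the COL25A1 value restates its fall in H446 cells and neither is read as a difference between lines. For A549 minus H446, 5 were higher and 3 lower (background 19.3% and 15.3%), and 4 and 4 with the GC trend removed (background 17.9% and 18.6%), where COL25A1 among the higher and COL3A1 among the lower were under the filter in A549 cells. These comparisons share libraries, so their counts are not independent.

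The BEAS-2B calls depended on irradiated replicate 2 and on the fit. With all libraries, 3 of the 20 tested collagen genes had irradiated libraries that did not overlap the controls (background 16.4% of all tested genes), all of them higher: COL7A1, COL9A3 and COL27A1. Without replicate 2, the same 3 genes passed the threshold (background 1.99%), each higher. The changes were then 1.11 for COL9A3 (adjusted p = 0.000698), 0.67 for COL27A1 (adjusted p = 0.00778) and 0.55 for COL7A1 (adjusted p = 0.0158) on the log2 scale. With replicate 2 kept but all 18 libraries in 1 fit, COL9A3, COL27A1 and COL7A1 passed as well (adjusted p = 0.00554, 0.0208 and 0.0156), 3 of 20 against a background of 7.01%. With the replicate number as a block, these 3 and COL6A1 passed, and the background share was not computed. Replicate 2 had the strongest GC trend of the BEAS-2B libraries (Spearman 0.70, against -0.63 to 0.45 in the others), and its collagen values as a whole, with a median log2 deviation of 0.16 from the control mean, were as high as in replicate 1. The part of that trend in the result was not tested without replicate 2. With all libraries and the trend removed, the changes of COL9A3, COL27A1 and COL7A1 were 0.68, 0.36 and 0.26.

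**Figure D4:**
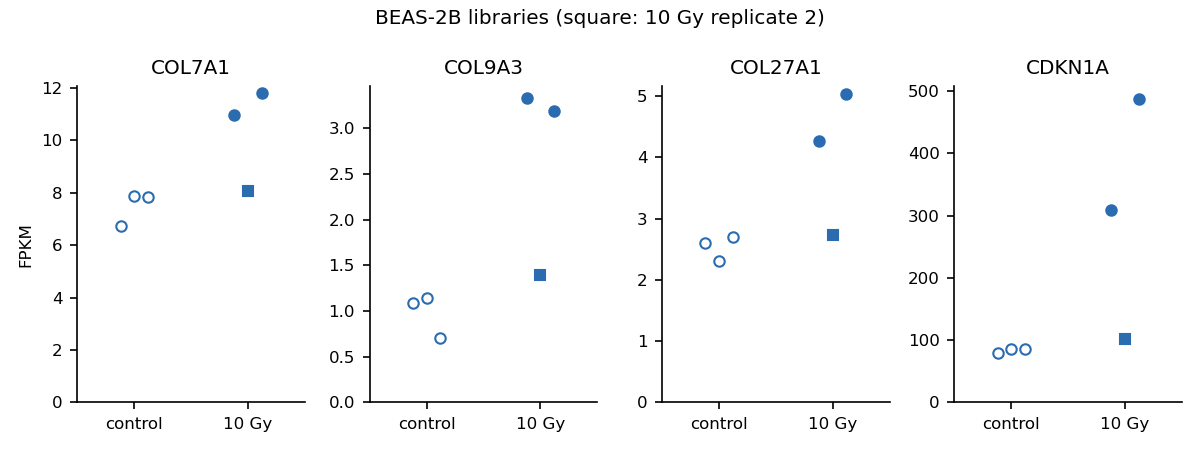
FPKM of COL7A1, COL9A3, COL27A1 and CDKN1A in the 6 BEAS-2B libraries, with open points for controls, filled points for 10 Gy and a square for irradiated replicate 2. For all 4 genes the square lies just above the controls and well below the other irradiated libraries.

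Genes that make, export, cross-link, bind or cut collagen were examined as a list of 60. In A549 cells 28 of the 46 tested rose and 6 fell (background 25.3% and 26.4%), with a median log2 fold change of 0.19. Among those with a mean of at least 5 FPKM, the largest rises were in P4HA2 (0.57 ± 0.06), a subunit of the prolyl hydroxylase that stabilises the helix, ITGA10 (0.57 ± 0.08), a collagen-binding integrin chain, LAMA3 (0.55 ± 0.05), a laminin chain of epithelial basement membranes, and TMEM131 (0.40 ± 0.05), which takes part in collagen secretion. Falls were seen in MIA2 (-0.44 ± 0.04), an export factor of the endoplasmic reticulum, LOXL2 (-0.22 ± 0.05), a cross-linking oxidase of type IV collagen, and SERPINH1 (-0.15 ± 0.04), the collagen chaperone HSP47. Each of these genes had an adjusted p of 0.0113 or less.

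By function, 7 of 14 hydroxylases and modifiers rose in A549 cells and none fell (background 25.3% and 26.4% of all tested genes). Of the procollagen proteinases 2 of 3 rose, and of the collagen-cleaving enzymes 2 of 4, with no falls. Most of the groups given here are too small to set against these shares. Of 11 basement membrane partners, 8 rose and 2 fell, and of 6 collagen receptors 5 rose and 1 fell (ITGB1, by 0.13 on the log2 scale). The chaperone and export group was split, with 2 rises and 2 falls among 5 genes, and so was cross-linking, with 2 rises and 1 fall among 3. Beside the rises of COL4A5, COL4A6 and COL18A1 there were rises in HSPG2 (0.24 ± 0.05) and AGRN (0.18 ± 0.04), proteoglycans of the same sheet.

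In H446 cells 5 of 44 handling genes rose and 14 fell (background 14.8% and 23.6%), with a median of -0.06, and 6 rose and 6 fell with the GC trend removed (background then 16.0% and 15.0%). Among those with a mean of at least 5 FPKM, the largest rises were in the collagen receptor chains ITGA1 (0.29 ± 0.05) and ITGA2 (0.28 ± 0.04), in LAMC1 (0.19 ± 0.04) and in P3H2 (0.18 ± 0.06), a prolyl 3-hydroxylase of basement membrane collagen. LAMA5 (-0.37 ± 0.05), the collagen uptake receptor MRC2 (-0.33 ± 0.06), the collagen-activated kinase DDR1 (-0.31 ± 0.06) and P3H4 (-0.26 ± 0.04) showed the largest falls. At lower levels PCOLCE (-0.48 ± 0.11), an enhancer of procollagen cleavage, and LAMA3 (-0.33 ± 0.07) also fell. The 4 rises named kept their call once the GC trend was removed, at 0.22, 0.23, 0.22 and 0.23 for ITGA1, ITGA2, LAMC1 and P3H2. The falls of LAMA5, DDR1 and LAMA3 then came to -0.13, -0.13 and -0.28 (adjusted p = 0.0178, 0.0494 and 0.00922), whereas MRC2 (-0.12), P3H4 (-0.08) and PCOLCE (-0.30) were no longer called (adjusted p = 0.0778, 0.107 and 0.0751). In BEAS-2B cells limma called 0 of 44 handling genes, and 10 had an unadjusted p under 0.05, against 1446 of all 11734 genes. Without irradiated replicate 2 it again called 0 (background 1.99%).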

How the data were processed

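The members, the gene lists and the tests were chosen with earlier results of these data known. The authors prepared poly(A)-selected libraries and read 50 bases from 1 end on the BGISEQ-500, and the submitters' processing notes name HISAT2 2.0.4, Bowtie2 2.2.5, RSEM 1.2.12 and hg38. The authors deposited 1 table of normalized values for 18 libraries, taken here to be FPKM, a unit inferred from the values and not named in the labels or header. The estimate of depth assumes whole reads in genes with a single transcript, from 176 to 257 genes per library. No more than 2.97% of values were equal between replicates. Near-identical genes may share reads.

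Genes were named by Entrez number, with positions and GC content from GENCODE 29 on GRCh38. Values were transformed to log2(FPKM + 1), so fold changes of low genes are understated. Each line was fitted alone in R 4.3.3 by limma 3.58.1, using lmFit followed by eBayes with trend, over all genes for which 3 or more of the 6 libraries reached 1 FPKM, with a Benjamini-Hochberg adjusted p under 0.05 as the threshold. Differences in response and unirradiated levels were tested in 1 fit of 18 libraries with 6 group means. At 3 libraries against 3, an exact permutation test cannot give a p below 0.1. Values per library are given for collagen genes that were called in a line or had a mean of at least 10 FPKM there, and of the handling genes called at a mean of 5 FPKM or more, the 4 that rose most and the 4 that fell most in each line are named; genes named beyond these were chosen after their values were seen, and some genes that meet these rules are not reported here. Samples were grouped by their titles. Replicate numbers were not taken as pairs, since the correlations of same-numbered deviations were between -0.13 and 0.32. The GC correction removed from each library its loess trend on GC content. The fits were tested on simulated data. Tables came from pandas 2.3.3 and numpy 2.4.6 under Python 3.11.15, and matplotlib 3.10.9 drew the figures.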

Additional observations from a re-analysis of the deposited data

Results flagged for a closer look

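The response to 10 Gy differed between lines for these collagen genes, by limma's test of the difference in the fit of 18 libraries (log2 scale, adjusted p under 0.05). For BEAS-2B minus H446, the differences were 0.87 for COL9A3, 0.53 for COL7A1, 0.52 for COL27A1, 0.46 for COL15A1 and -0.51 for COL8A1. For BEAS-2B minus A549, they were 0.80 for COL9A3, 0.58 for COL4A1, -0.32 for COL4A4, -0.48 for COL4A6 and -0.69 for COL4A5. For A549 minus H446, they were 0.75 for COL4A5, 0.63 for COL4A6, 0.53 for COL15A1, 0.49 for COL27A1, 0.44 for COL7A1, -0.38 for COL12A1, -0.46 for COL4A1 and -0.49 for COL8A1. COL15A1 was under the filter in BEAS-2B cells. Without irradiated BEAS-2B replicate 2, the BEAS-2B minus H446 differences of COL9A3, COL27A1 and COL7A1 were 1.15, 0.72 and 0.68. The differences of COL4A4 (BEAS-2B minus A549) and COL12A1 (A549 minus H446) missed the threshold after quantile normalization or rescaling to equal totals, and that of COL27A1 (BEAS-2B minus H446) after quantile normalization. COL9A3 passed the filter through BEAS-2B cells alone and was near 0 in A549 cells, so its differences largely restate the BEAS-2B change. They were 0.51 ± 0.25 against H446 (adjusted p = 0.206) and 0.65 ± 0.25 against A549 cells (adjusted p = 0.0524, limma) once the GC trend was removed.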

How the results depend on the processing

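The alternatives were quantile normalization, rescaling to equal totals, eBayes without a trend, a pseudocount of 0.1, no filter or a filter that asks 1 FPKM of all libraries, a threshold of 0.01 for the adjusted p, a fold limit of 0.5 (log2, either sign), removal of the GC trend, other sets of libraries in the fit, the replicate block, and each library left out in turn. Of the 19 calls of a collagen gene in a line, 9 kept sign and threshold under every alternative other than the stricter p and the fold limit, and 1 turned its sign (COL7A1 in H446 cells).

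For collagen genes called in BEAS-2B cells, the count of 0 became 4 with the replicate block and 3 in the fit of all 18 libraries (background 7.01%). The share of all genes called with the replicate block was not computed. With single libraries left out, the count was 0 to 3. In H446 cells the 6 became 3 at an adjusted p under 0.01 and 0 under the fold limit, and 3 to 5 with single libraries left out (3 without control 1, control 3 or irradiated 3). In A549 cells the 13 became 2 under the fold limit, 10 after quantile normalization and 9 (8 higher, 1 lower) in the fit of all 18 libraries. The count was 11 to 12 with libraries left out. With the replicate block the counts were 4 in H446 and 11 in A549 cells. For A549 minus H446, the 8 differences in response became 3 at an adjusted p under 0.01 and 3 under the fold limit, and were 5 to 8 with libraries left out (5 without A549 control 3, A549 irradiated 1 or H446 control 2). For BEAS-2B minus A549, the 5 became 3 under the fold limit and 4 to 6 with libraries left out. For BEAS-2B minus H446, the 5 became 3 at an adjusted p under 0.01 and 3 in the fit of those lines alone, and 4 to 7 with libraries left out. Unirradiated differences, with libraries left out, numbered 22 to 23 for A549 against BEAS-2B, 24 for H446 against BEAS-2B and 19 for H446 against A549. Handling genes called in BEAS-2B cells numbered 8 of 44 in the fit of all 18 libraries (background 7.01%). They numbered 3 with the replicate block, without a background share, and 0 with any library left out. In H446 cells the 19 became 12 with the GC trend removed, 12 at an adjusted p under 0.01 and 0 under the fold limit, and 15 to 20 with libraries left out. In A549 cells the 34 became 22 in the fit of all 18 libraries and 4 under the fold limit, and 28 to 32 with libraries left out.

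With the GC trend removed, signs turned for changes that were not called: in BEAS-2B cells to -0.0356 for COL18A1, -0.00904 for COL1A1, -0.0245 for COL4A5, -0.00169 for COL4A6, -0.066 for COL5A1 and -0.0733 for COL9A2, and in H446 cells to 0.14 for COL1A1, 0.127 for COL27A1, 0.0942 for COL4A2, 0.00987 for COL4A5, 0.00422 for COL4A6 and 0.146 for COL5A1. COL7A1 in H446 cells turned to 0.0832. Quantile normalization turned COL1A1 to 0.0409 and COL27A1 to 0.00672 in H446 cells, and rescaling turned COL5A1 there to 0.00788. With single libraries left out, log2 changes of BEAS-2B cells were -0.0425 to 0.128 for COL11A1, -0.098 to 0.0914 for COL13A1, -0.0366 to 0.0707 for COL4A5, -0.0668 to 0.183 for COL5A1, -0.147 to 0.00934 for COL5A2 and -0.00912 to 0.135 for COL9A2. In H446 cells it was -0.0595 to 0.00298 for COL1A1, -0.0805 to 0.0124 for COL27A1 and -0.0427 to 0.0386 for COL5A1. The replicate numbers share only a number, and the causes of these shifts were not tested.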
